A study of Rattus norvegicus with 6 samples.

Results

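The miR-30 family is a group of microRNAs (miRNAs) that share the seed, the stretch of bases near the 5′ end with which a miRNA pairs to its target mRNAs. Its members here were all mouse or rat assays of the miRNA card whose miR number is exactly 30, which gave 5 assays, listed on the card as mmu-miR-30a, mmu-miR-30b, mmu-miR-30c, mmu-miR-30d and mmu-miR-30e, of 375 rodent miRNA assays in all. All 5 had signal in every set, so none was lost to a filter on low values. The study compared myocyte-derived cells (MDCs), the small, round, loosely attached cells that appear above confluent cultures of purified cardiomyocytes, with the cardiomyocytes (Myocyte) themselves, both from hearts of 2-month-old Wistar-Kyoto rats. The labels give 2 weeks in medium rich in mitogens for both groups, whereas the study's methods describe the Myocyte sets as freshly isolated cells, so the culture state of the Myocyte sets is not settled. MDCs were collected without a sort and can hold several cell types. The deposited data are 3 sets of values labelled MDC and 3 labelled Myocyte.

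miRNAs of this family are abundant in the adult heart, and in rodent heart cells they are known to repress connective tissue growth factor, a matrix-inducing protein, and p53, a regulator of cell death and of the cell cycle. In human pancreatic islet cells they hold down mesenchymal transcripts. In mammals the family is encoded in 3 clusters, each holding a pair of genes, and the mature miR-30c comes from 2 genes in different clusters.

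Mature rat sequences from RefSeq (build GRCr8) matched 3 of the 5 assays by name, taking the older assay names without an arm for the 5′ arm. They are shown because the seed defines the family while the remaining bases tell its members apart, and a further assay of the card, miR-384-5p, carries the same seed under another number. Capitals mark the seed, bases 2 to 8.
rno-miR-30a-5p: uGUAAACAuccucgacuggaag
rno-miR-30c-5p: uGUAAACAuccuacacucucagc
rno-miR-30e-5p: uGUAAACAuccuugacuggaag
rno-miR-384-5p: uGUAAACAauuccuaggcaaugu
The seed GUAAACA was held by 4 of 693 mature names in that table (0.577%), the 4 shown. Rat miR-30b and miR-30d had no entry there, so this share leaves them out and says nothing about their seed. miR-30a and miR-30e were identical at 21 of 22 positions and differed by C13U, counted from the 5′ end of miR-30a. miR-30c was identical to each of them at 17 of 22 positions. miR-384-5p was identical to miR-30a at 12 of 22 positions. Mir30a (mature chr9:33233946-33233967, plus strand) lies 19670 bases from Mir30c2 (chr9:33253695-33253717, plus strand). Mir30e (chr5:139637504-139637525, minus strand) lies 2906 bases from Mir30c1 (chr5:139634505-139634527, minus strand), and both lie within the span of Nfyc, the gene of a subunit of the transcription factor NF-Y. Mir30b and Mir30d neighbour each other on chromosome 7, within the span of the long non-coding RNA gene LOC102551574. The annotation used here gives gene spans only, so exons and introns could not be told apart.

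Each set is a TaqMan card filled with pre-amplified cDNA. A card gives for each assay the Ct, the PCR cycle at which its fluorescence crosses a threshold, so that a lower Ct means more template. Of the 375 miRNAs, 201 had signal in each MDC set and 203 to 212 in the Myocyte sets, and their median Ct was 23.1 to 24.9 in the MDC sets and 24.7 to 25.0 in the Myocyte sets. No well had signal in only some of the 3 MDC sets, and the 4 wells of the U6 control differed among themselves in the same way in all of them. The same was true of Myocyte 2 and Myocyte 3. Each of these was counted as 1 card read more than once, which leaves 1 MDC sample and 2 Myocyte samples, and variation among MDC cultures was not measured. This count differs from the study's methods, which speak of both biological and technical repeats, and every SE, p and n below depends on it. Over the wells, the Ct gap had an SD of 1.09 cycles between MDC 1 and MDC 2, 1.42 between MDC 1 and MDC 3 and 0.38 between MDC 2 and MDC 3. It was 0.089 between Myocyte 2 and Myocyte 3, and 0.49 and 0.52 between Myocyte 1 and these. MDC 1 thus differed from the readings merged with it by more than the separate Myocyte samples differed. MDC 1 stood apart from the other readings. In it 207 of 208 wells with signal had a Ct within 0.1 cycles of a whole cycle, against 16.7% to 21.6% of the wells in the other sets. Its values therefore resolve little below 1 cycle. The median and range of the members' differences, the changes within pairs and the nearest profiles are given with and without it. Other results, such as the ranks, the shares called and the lists of other miRNAs, include it unless stated.

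**Figure D1:**
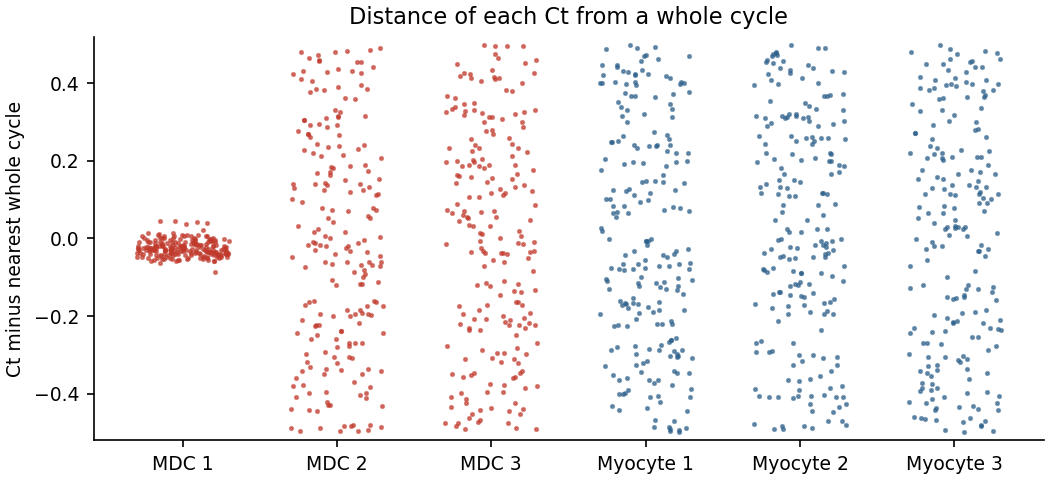
Distance of every Ct from the nearest whole cycle (vertical axis, in cycles) in each of the 6 sets (horizontal axis), 1 point per assay with signal, MDC sets in red and Myocyte sets in blue. The points of MDC 1 lie in a narrow band at 0, and those of the other 5 sets fill the range.

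All 5 miR-30 assays were lower in MDCs than in myocytes. Against U6 they were 35.2-fold to 89.4-fold lower, taking each cycle as a doubling, with a median difference of −6.08 log2 units. miR-30c and miR-30b had the largest differences and miR-30d the smallest. Without MDC 1 the median difference was −5.49 and the folds were 32.1 to 60.7.

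miR-30c, the product of both Mir30c1 and Mir30c2, had the earliest Ct of the members. Its Ct was 20.0, 17.8 and 18.6 in MDC 1 to 3, against 13.3, 13.1 and 13.3 in Myocyte 1 to 3. From here on a level is the mean U6 Ct of a set less the Ct of the assay in it, in log2 units, so that 0 is the level of U6. The level of miR-30c was −5.98, −4.44 and −4.18 in the MDC sets, against 1.42, 1.78 and 1.84 in the Myocyte sets. It was above U6 in every Myocyte set and below U6 in every MDC set, and the groups were 5.60 log2 units apart at their closest. The difference between the means was −6.48 ± 0.35 log2 units (SE, 1 MDC sample and 2 Myocyte samples).

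miR-30b, encoded beside miR-30d, behaved much like miR-30c. Its level was −5.99, −4.45 and −4.21 in the MDC sets, against 1.20, 1.44 and 1.49 in the Myocyte sets, a difference of −6.21 ± 0.35 log2 units. miR-30b was the other member above U6 in all Myocyte sets. With Ct values of 20.0, 17.8 and 18.6 in the MDC sets, it could hardly be told from miR-30c there. In the Myocyte sets its Ct was 13.5, 13.5 and 13.6.

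miR-30a and miR-30e, the members that differ by 1 base, stood close to each other in both groups. The level of miR-30a was −8.97, −7.37 and −7.06 in the MDC sets, against −1.92, −1.57 and −1.50 in the Myocyte sets, a difference of −6.08 ± 0.35. The level of miR-30e was −8.96, −7.63 and −7.33 in the MDC sets, against −2.20, −1.92 and −1.86 in the Myocyte sets, a difference of −5.93 ± 0.35. Neither member reached the level of U6 in any set, and the groups were more than 5 log2 units apart for both. How far each assay reads the other member was not tested.

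miR-30d had the lowest level of the members in both groups. Its level was −10.01, −9.60 and −9.62 in the MDC sets, against −4.73, −4.49 and −4.47 in the Myocyte sets, a difference of −5.14 ± 0.35 log2 units. This was the smallest difference in the family, with 4.87 log2 units between the nearest MDC and Myocyte sets. The MDC readings of miR-30d also lay closer together (SD 0.23 log2 units over the 3 readings) than those of the other 4 members (SD from 0.87 to 1.02). Those larger SDs rest on MDC 1, since MDC 2 and MDC 3 differed by 0.24 to 0.31 log2 units for these 4 members and by 0.017 for miR-30d.

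**Figure D2:**
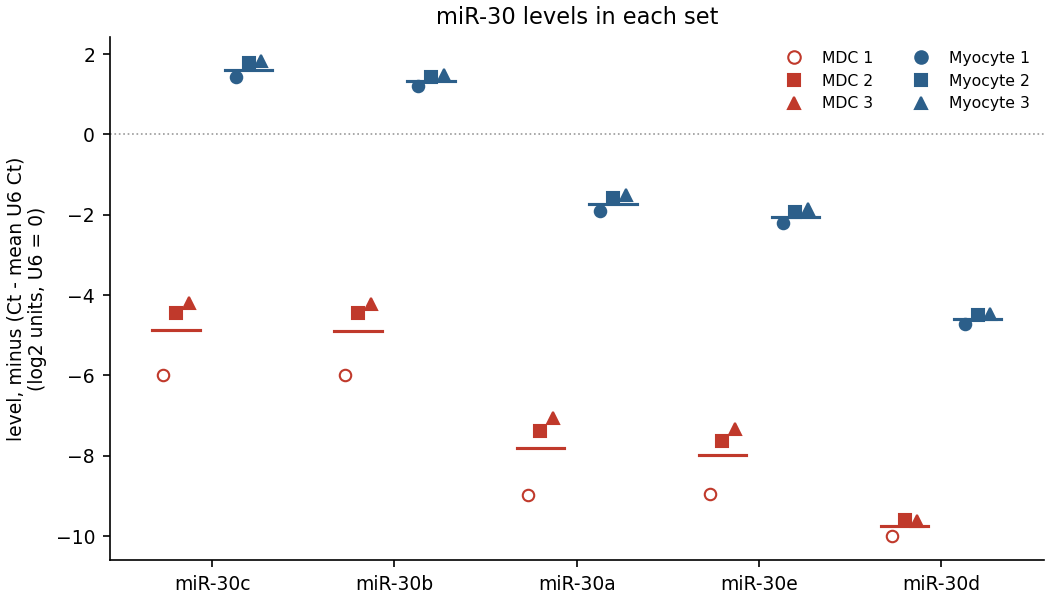
Level of each miR-30 assay (vertical axis, log2 units against U6, dotted line at the level of U6) in every set, MDC sets left in red and Myocyte sets right in blue, with a line at the mean of the samples counted. For each member all MDC readings lie below all Myocyte sets, and MDC 1 (open circle) is the lowest MDC reading.

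The differences were set against those of all 157 miRNAs with signal in every sample. With limma and Benjamini-Hochberg adjustment over these miRNAs, all 5 members were lower in MDCs, with adjusted p from 1.26e-40 to 8.32e-31. Lower calls were common on this card, since 52.2% of the 157 miRNAs were called lower and 28.0% higher. Likewise the MDC sets lay below the Myocyte sets without overlap for 5 of 5 members and for 49.7% of the 157 miRNAs. The size of the difference placed the family nearer the low end. The median difference was −6.08 for the members and −0.80 for all 157, whose middle range ran from −2.97 to 0.89. Without MDC 1 these medians were −5.49 and −0.30. miR-30c, miR-30b, miR-30a, miR-30e and miR-30d took ranks 11, 13, 14, 15 and 21 of 157 from the lowest difference, so that 13.4% of the miRNAs tested had a difference as low as or lower than that of miR-30d. The p-values rest on an SD of 0.28 log2 units that limma gave to all miRNAs alike and that comes from the 2 Myocyte samples. They assume that the lone MDC sample varies like these and do not test the spread among MDC cultures. The same holds for the limma calls with other controls given below, and an exact permutation test of 1 sample against 2 cannot give a p below 0.333. With the unpaired test of the study's methods on the same samples, the calls of all 5 were lost after adjustment (adjusted p from 0.0977 to 0.106). That test then called none of the 157 miRNAs, so this loss is not particular to the family. With all 6 sets taken as separate samples that test called all 5 (adjusted p from 0.000191 to 0.00245, methods' unpaired test over 157 miRNAs beside limma's 2.76e-08 to 6.32e-08). It called 61 of the 157 lower and 33 higher, but repeated readings of 1 card are not independent.

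**Figure D3:**
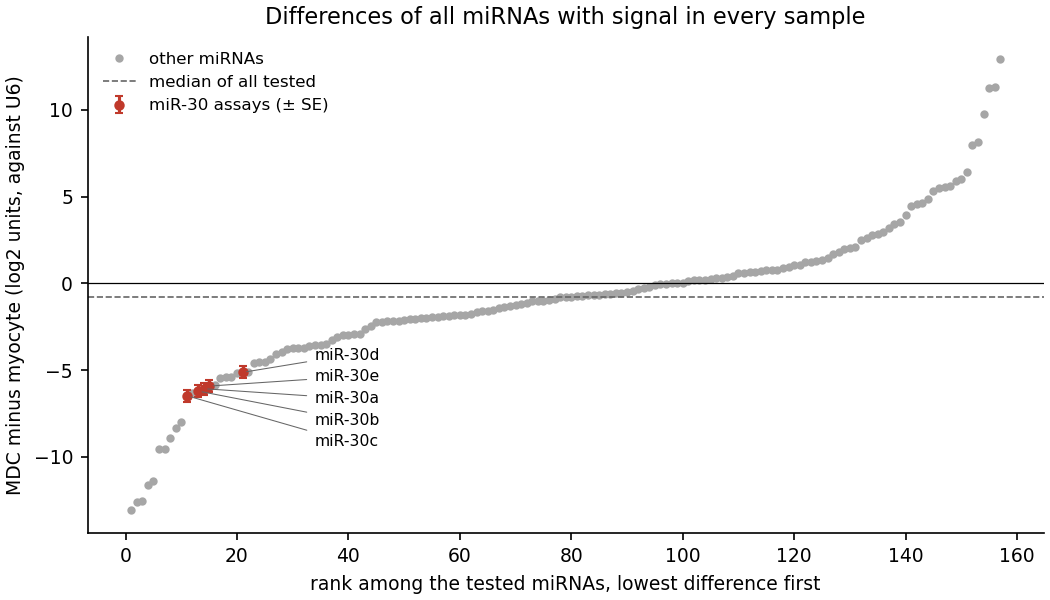
Difference between MDCs and myocytes (vertical axis, log2 units against U6) of the 157 miRNAs tested, in order from the lowest (horizontal axis, rank), with the miR-30 assays in red with their SE and the median of all as a dashed line. The 5 members lie between ranks 11 and 21, below the dashed line at −0.80.

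The direction of these differences depended on the control RNA. It was the same with snoRNA135 as with U6 and turned with U87. The Ct of U6 was 14.0, 13.4 and 14.4 in the MDC sets, against 14.7, 14.9 and 15.1 in the Myocyte sets, and that of the small nucleolar RNA snoRNA135 was 22.0, 20.5 and 21.6 in the MDC sets, against 21.9, 22.3 and 22.5 in the Myocyte sets. With snoRNA135 alone, the 5 members were lower by differences of −6.35 to −5.00. With raw Ct values they were lower by −5.57 to −4.22, and with the mean Ct of the miRNAs detected in every set by −5.58 to −4.23. Y1 and U87, the other small RNA controls with signal, went the other way from U6, and a further one, snoRNA202, had no signal in any set. The Ct of Y1 was 22.0, 23.3 and 25.5 in the MDC sets, against 19.6, 20.3 and 20.5 in the Myocyte sets. The Ct of U87 was 31.0, 31.2 and 33.2 in the MDC sets, against 18.6, 18.5 and 18.7 in the Myocyte sets, a shift larger than that of any miR-30 member. With Y1 alone the members' differences ran from −1.99 to −0.65 and 4 of 5 were called lower, the exception being miR-30d (adjusted p = 0.299 from limma), beside 16 of all 157 miRNAs called lower. With the mean of snoRNA135, Y1 and U87 they ran from −0.24 for miR-30c to 1.10 for miR-30d, which was called higher (adjusted p = 0.00721 from limma), beside 140 of all 157. With U87 alone all 5 were called higher, by 7.61 to 8.96, as were all 157 miRNAs, so that this call is no result about the family. Which control holds the same amount per cell in both groups was not tested. The median of the members minus the median of all 157 miRNAs was −5.27 log2 units with every normalizer, since a normalizer shifts all miRNAs alike.

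**Figure D4:**
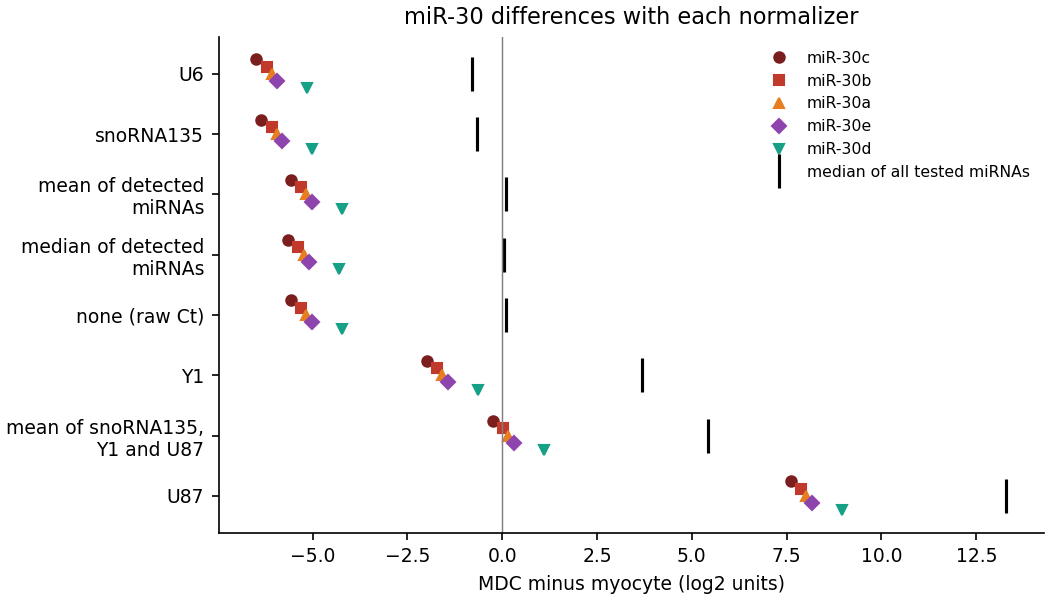
Difference between MDCs and myocytes of each miR-30 assay (horizontal axis, log2 units) with each normalizer (rows), and the median of all 157 miRNAs tested as a black bar. The members lie left of the black bar by the same distance in every row, and all 5 lie to the right of 0 with U87, and 4 of 5 with snoRNA135, Y1 and U87 averaged.

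The place of the members among all detected miRNAs of a set needs no control either. By Ct, miR-30c and miR-30b ranked 3 and 4 in all Myocyte sets, of 203 to 212 detected miRNAs, and between 20 and 27 in the MDC sets, of 201. miR-30a ranked 60, 65 and 63 in the MDC sets, against 11, 10 and 10 in the Myocyte sets, and miR-30e ranked 59, 67 and 66, against 13, 13 and 12. miR-30d ranked 89, 100 and 103 in the MDC sets, against 33, 35 and 35 in the Myocyte sets. Every member thus stood lower in the order of the MDC sets than in that of the Myocyte sets. Assays differ in efficiency, so that these ranks describe the card and not numbers of molecules.

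In both groups the order of the mean levels was miR-30c, miR-30b, miR-30a, miR-30e and miR-30d. The level of miR-30b minus that of miR-30c was −0.01, −0.01 and −0.02 log2 units in the MDC sets, against −0.22, −0.34 and −0.35 in the Myocyte sets, so that these neighbours were not distinct in MDCs. The level of miR-30a minus that of miR-30e was −0.01, 0.25 and 0.27 in the MDC sets, against 0.29, 0.35 and 0.36 in the Myocyte sets. In MDC 1 these neighbours fell on the same whole cycle and their order was reversed. The other neighbours were farther apart. miR-30a minus miR-30b was −2.98 to −2.85 in the MDC sets, against −3.11 to −2.98 in the Myocyte sets, and miR-30d minus miR-30e was −2.29 to −1.04 in the MDC sets, against −2.62 to −2.53 in the Myocyte sets.

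Members of 1 cluster were compared within each set, where the control cancels. In the cluster of Mir30a and Mir30c2, the level of miR-30a minus that of miR-30c was −2.99, −2.94 and −2.88 in the MDC sets, against −3.34, −3.35 and −3.34 in the Myocyte sets, a change of 0.41 log2 units. In the cluster of Mir30e and Mir30c1, miR-30e minus miR-30c was −2.98, −3.19 and −3.15 in the MDC sets, against −3.62, −3.70 and −3.70 in the Myocyte sets, a change of 0.56. In the cluster of Mir30b and Mir30d, miR-30d minus miR-30b was −4.01, −5.15 and −5.41 in the MDC sets, against −5.93, −5.92 and −5.96 in the Myocyte sets, a change of 1.07. In each cluster the member with the higher level had the larger fall, and the MDC and Myocyte sets did not overlap. Both held for every other pair of members as well, so neither is particular to the clusters. For miR-30a minus miR-30b the nearest values were −2.976 in MDC 1 and −2.984 in Myocyte 3, closer than MDC 1 can resolve. The pairs share members and are not separate observations, and the share over pairs of all miRNAs was not computed. miR-30c carries the sum of 2 clusters, so that the share of each of its genes cannot be told apart.

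The change within the cluster of Mir30b and Mir30d rested largely on MDC 1. It was 1.92 with MDC 1 alone and 0.65 without it, whereas the changes in the clusters of Mir30a with Mir30c2 and of Mir30e with Mir30c1 were 0.43 and 0.49 without it. Over all 10 pairs of members, the change between the groups ran from 0.14 log2 units for miR-30a against miR-30b to 1.35 for miR-30c against miR-30d in size. Without MDC 1 it ran from 0.060 for miR-30a against miR-30e to 0.92 for miR-30c against miR-30d. The 0.14 for miR-30a against miR-30b was 0.078 without Myocyte 1. The SD of these gaps within a group, pooled over the 6 sets, was 0.039 log2 units for miR-30a against miR-30c, 0.085 for miR-30e against miR-30c and 0.051 for miR-30b against miR-30c, all smaller than the changes of these pairs, and 0.53 for miR-30d against miR-30b. That spread comes largely from repeated readings of the same cards. With the SD that limma shared over all miRNAs, and errors of both assays taken as independent, the SE of each change would be 0.49. In an exact two-sided permutation test over the samples counted, 9 of the 10 pairs had p = 0.333, the smallest this design allows (adjusted p = 0.370 over the 10 pairs), and miR-30a against miR-30b had p = 0.667. With all 6 sets as separate samples all 10 pairs had an exact permutation p of 0.1, which is again the smallest possible. Neither permutation test could have passed the threshold, so whether the members differed in the size of their fall was not settled by them.

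**Figure D5:**
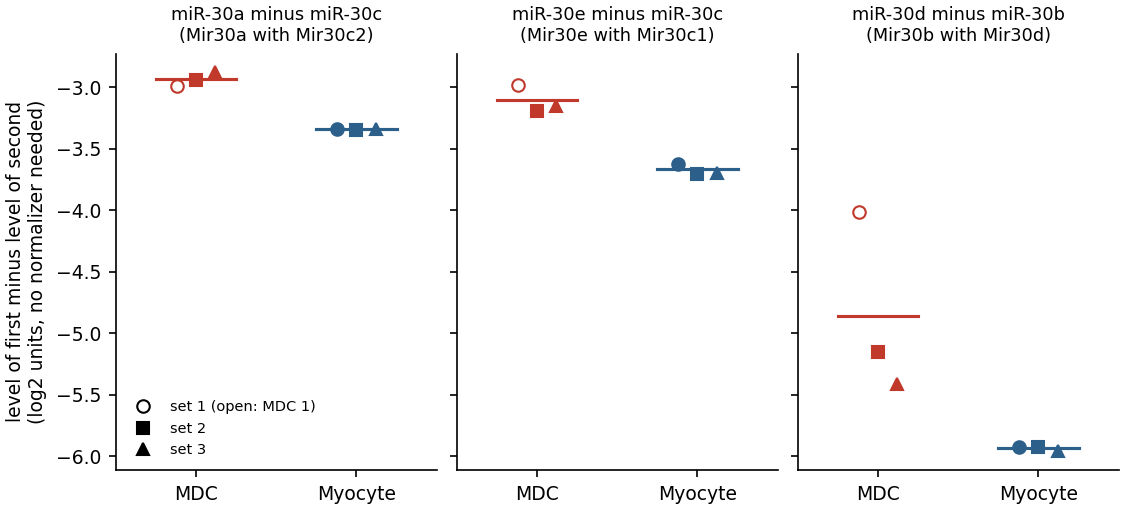
Level of the first member minus level of the second (vertical axis, log2 units) for the 3 genomic clusters, MDC sets left in red and Myocyte sets right in blue, with lines at the means of the samples counted. In each cluster the MDC readings lie above the Myocyte sets, and in the pair of miR-30d and miR-30b the reading of MDC 1 (open circle) lies farthest from them.

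The members other than miR-30d had profiles close to each other. Likeness was measured as the root-mean-square distance between profiles of the 6 levels, each set taken against the miRNA's own mean, over miRNAs with signal in every set. The profiles share 3 cards, so that this is a description. For each of miR-30a, miR-30b, miR-30c and miR-30e, 3 of the 4 nearest miRNAs were members. miR-30a and miR-30b were nearest to each other (0.08 log2 units), miR-30b was nearest to miR-30c (0.15) and miR-30a to miR-30e (0.12). The nearest miRNA to miR-30d was miR-107 (0.32), an intronic miRNA of a pantothenate kinase gene, with no member among its 4 nearest. Without MDC 1 this changed, in that miR-146b was nearest to miR-30d (0.091), miR-30e ranked 4 (0.24) and miR-107 was farther away (0.33). For the other 4 members, 3 of the 4 nearest were again members without MDC 1, and miR-30a and miR-30e were then the nearest to each other (0.043). Among 152 miRNAs outside the family, those nearest to its mean profile were rno-miR-345-3p (0.14), miR-146b (0.32), miR-223 (0.33), miR-32 (0.57) and miR-107 (0.65). The members, which make up that mean, lay at 0.043 (miR-30e), 0.138 (miR-30a), 0.150 (miR-30b), 0.281 (miR-30c) and 0.542 (miR-30d) from it. With rno-miR-345-3p at 0.136, only miR-30e was nearer to the mean than this outside miRNA. Without MDC 1, rno-miR-345-3p was again the nearest outside the family (0.080), and rno-miR-450a (0.37) took the place of miR-32 among the 5 nearest. rno-miR-345-3p had levels of −17.00, −15.94 and −15.88 in the MDC sets, against −10.47, −10.33 and −10.30 in the Myocyte sets, a difference of −5.88 log2 units. Its Ct was 29.3 or later in the MDC sets, where the latest miR-30 Ct was 24.1. A second assay of that name, mmu-miR-345-3p, had no signal in MDCs and was not among the profiles compared.

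miR-384-5p, which carries the miR-30 seed, had no signal in any MDC set, against Ct values of 24.8, 24.3 and 24.5 in Myocyte 1 to 3. With the missing Ct values set at the limit of 40 cycles, its difference was −16.32 log2 units or lower. It is no member of the family by number, and it was chosen after its values had been seen.

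Of 5 assays for miRNAs outside the family that repress matrix genes or connective tissue growth factor, all 5 were lower in MDCs against U6. This stands beside the 52.2% of all miRNAs, and the median difference was −3.81. The 5 belong to the miR-29 and miR-133 families only, and the miR-133 assays also count among the cardiomyocyte assays below. miR-133a, which shares connective tissue growth factor as a target with miR-30c in rodent heart cells, had levels of −8.79 in MDCs and 3.80 in myocytes. miR-29a, a repressor of collagens, had levels of −2.10 in MDCs and −0.73 in myocytes, and its relative miR-29c had levels of −7.23 in MDCs and −3.41 in myocytes. Of 6 assays for miRNAs that restrain mesenchymal transition, 1 was lower (miR-141, by a difference of −6.31), 3 had signal in myocytes only (miR-200b, miR-200c and miR-205) and 2 had no signal anywhere. The Ct of miR-205 was late, at 35.2, 35.6 and 35.9 in Myocyte 1 to 3, past the alternative limit of 35. In MDC 1 to 3 the Ct of miR-141 was late as well, at 31.9, 33.6 and 36.3, so that MDC 3 lay past that limit. The share of all assays with signal in myocytes only was not computed, so this count is a description without a background.

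Markers of several heart cell types also differed between the groups against U6, in both directions. As for the members, these directions depend on the control, and with U87 alone every miRNA tested was higher in MDCs. Of 7 assays of cardiomyocyte miRNAs, 5 were lower and the other 2, miR-208 and miR-208b, had no signal in MDCs. Their summed level was −8.09 to −7.30 log2 units in the MDC sets, against 4.32 to 4.57 in the Myocyte sets. Of 5 fibroblast assays, 4 were higher and 1 had signal in MDCs only, with a summed level of −1.81 to −0.86 in the MDC sets, against −5.94 to −5.82 in the Myocyte sets. Both endothelial assays were lower, with a summed level of −12.84 to −11.39 in the MDC sets, against −3.78 to −3.35 in the Myocyte sets. Both smooth muscle assays were lower too, at −2.90 to −1.73 in the MDC sets, against −0.22 to −0.05 in the Myocyte sets. Raw Ct values of miR-145 overlapped, at 17.0, 15.4 and 16.3 in the MDC sets, against 14.9, 15.3 and 15.5 in the Myocyte sets. Of 5 leukocyte assays, 3 were lower, 1 was higher and 1 had signal in MDCs only, with a summed level of −6.96 to −4.61 in the MDC sets, against −4.18 to −4.04 in the Myocyte sets. These counts stand beside 52.2% lower and 28.0% higher calls over all 157 miRNAs, and the leukocyte count is close to that background. Those shares leave out miRNAs with signal in 1 group only. The erythroid miRNA miR-451 had no signal in MDCs, against a level of −19.14 to −18.25 in the Myocyte sets. The part of these markers in the miR-30 differences was not tested, and in bulk RNA fewer cells of a type and less miRNA per cell cannot be told apart.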

How the data were processed

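The deposited files hold Ct values in PCR cycles, and per the file headers no normalization was applied to them. The authors took them on a real-time PCR system after reverse transcription and pre-amplification. Threshold and baseline settings are not given in the sources used here. A table of the authors, Ct minus mean U6, differed from the Ct values by at most 5e-05 cycles and was used for that check only. No depth or number of molecules underlies a Ct, so no counting interval was computed. A well given as undetermined or as 40 was read as no signal. A level is the mean over the 4 U6 wells less the Ct.

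Sets of 1 group with identical wells of no signal and correlated U6 wells were averaged, which leaves 1 MDC sample and 2 Myocyte samples. All 157 miRNAs with signal in every sample were fitted with limma 3.58.1 in R 4.3.3, MDC minus Myocyte, with Benjamini-Hochberg adjustment at 0.05. The fit was also run on simulated data, in which the MDC sample was given the same SD as the Myocyte samples. Those data therefore could not check whether MDCs vary like myocytes. The infinite prior degrees of freedom gave all miRNAs 1 SD, and p-values measure only the spread between these samples, which may be technical. Permutation tests were exact and two-sided (SciPy 1.17.1, Python 3.11.15). Figures were drawn with matplotlib 3.10.9.

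Described are all miR-30 assays, the controls, the 5 nearest profiles outside the family and, of each list of miRNAs, counts with at most 3 members. The members and lists were chosen with earlier results of these data known. Lists came from general knowledge. Alternatives were other normalizers, all 6 sets as samples with and without a replicate block, each MDC reading alone, limits of Ct 35 and 32, trend and robust moderation, the methods' unpaired test and leaving out each set. The nearest profiles without MDC 1 were computed after seeing the data.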

Additional observations from a re-analysis of the deposited data

How the results depend on the processing

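The number of miR-30 assays called lower was 5, with 0 called higher, under every alternative except the following. With the mean of snoRNA135, Y1 and U87 in place of U6, 0 were called lower and 1 higher, and the median difference was 0.16 log2 units, with miR-30a at 0.16, miR-30b at 0.026, miR-30d at 1.10 and miR-30e at 0.31. With U87 alone, 0 were called lower and 5 higher, the median was 8.02, and miR-30a to miR-30e stood at 8.02, 7.88, 7.61, 8.96 and 8.17. With Y1 alone, 4 were called lower and the median was −1.59. With the methods' unpaired test on the samples counted, 5 were called lower before adjustment and 0 after it, and on all 6 sets 5 were called after adjustment, with 61 lower and 33 higher over all miRNAs. The median was −5.17 with the mean Ct of the miRNAs detected in every set, −5.24 with the median Ct and −5.16 with raw Ct values. It was −7.25, −5.65 and −5.34 with MDC reading 1, 2 and 3 alone. Leaving out each set in turn gave medians from −6.45 to −5.49, and leaving out MDC 1 from the fit of 6 sets, an alternative chosen after seeing the data, gave −5.56. Without Myocyte 1, 1 sample is left on each side, so that no count of calls could be had. Over all miRNAs, 82 were lower and 44 higher. These counts were 10 and 140 with the mean of the other controls, 16 and 120 with Y1, 0 and 157 with U87, 43 and 20 with the methods' test unadjusted, and 0 and 0 with it adjusted. Of calls, 65.1% were lower with U6, 50.4% with the mean and 52.3% with the median of detected miRNAs, and 50.8% with raw Ct values. Leaving out 1 set gave 74 to 87 lower and 38 to 54 higher calls. The cause of these shifts was not tested, beyond the Ct of the controls given above. The change within clusters was 0.35 and 0.46 for miR-30a minus miR-30c with MDC reading 1 and 3 alone, 0.68 for miR-30e minus miR-30c with reading 1, and 1.92 and 0.52 for miR-30d minus miR-30b with readings 1 and 3. Leaving out each set gave 0.38 to 0.43, 0.49 to 0.60 and 0.65 to 1.35 for these pairs. The sets were taken as unpaired. Deviations of same-numbered sets from their group means correlated at 0.117, −0.077 and 0.238 for numbers 1, 2 and 3, not all above 0.1. With 3 sets in each group, and the MDC sets counted as 1 card, these values cannot settle whether the replicate numbers pair the sets. With all 6 sets as samples and the number as a replicate block, 5 members were lower, 69 and 34 of all miRNAs were lower and higher, and the median was −6.14. Without the block these were 69 and 35.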
